A study of Mus musculus with 24 samples.

Results

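Hearts of mice carrying the Arg389 form of the human beta1-adrenergic receptor were set against hearts carrying the Gly389 form, gene by gene. The comparison used 12 of the 24 hearts in the series, all from mice at 90 days of age. They were 6 beta1-Arg389 transgenic hearts (ARG replicates 1 to 6) and 6 beta1-Gly389 transgenic hearts (GLY replicates 1 to 6), chosen by their titles. In both lines the human cDNA was driven to cardiac myocytes by the alpha-myosin heavy chain promoter. Hearts of non-transgenic mice (NTG, 6 replicates) give the level without a transgene, and 6 hearts of mice transgenic for AC5 enter 1 alternative fit only. The sources used here give neither the number of founder lines nor the level of the transgene in each line. A difference between the receptor forms and a difference between the transgenic lines therefore cannot be told apart. Total RNA was measured on Affymetrix arrays, 1 array per heart. The deposited values are linear ratios that lie near 1 in NTG hearts, and all values below are log2 of them. A log2 ratio of 0 is thus near the NTG level for most genes, although some NTG medians lie below it (-0.43 for Col3a1, -0.26 for Hspa1a), and each unit is a factor of 2. A ratio holds no signal level, so it gives no measure of how abundant a transcript was.

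The beta1-adrenergic receptor is the main receptor for noradrenaline and adrenaline on heart muscle cells. It couples through the stimulatory G protein to adenylyl cyclase, and the cyclic AMP made there activates protein kinase A, which raises the rate and force of contraction. Receptor kinases and arrestins end the signal. The Arg389 and Gly389 forms are common human variants that differ by 1 residue in the intracellular tail near the G protein contact, and the Arg389 form couples more strongly in transfected cells. Long overstimulation of the receptor in mouse hearts is known to end in fibrosis and failure.

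Some arrays stood apart from their group, and this touches every result below. GLY replicate 6 correlated with the other GLY arrays at a median r of 0.13 over all probe sets, and with the ARG arrays at 0.506. Its r with single GLY arrays ran from -0.03 to 0.535. GLY replicates 1 and 3 had the widest SD of log2 ratios of all arrays, at 0.411 and 0.428. They correlated with each other at 0.786, the highest r of any pair. In a fit with array weights theirs were the lowest, at 0.493 and 0.436, against 0.964 for GLY replicate 6. ARG replicate 1 correlated about equally with the other ARG arrays (median r of 0.445) and with the GLY arrays (0.442). When an array was left out, its position on the remaining calls was read on a scale from 0 (the mean of its own group) to 1 (the mean of the other group). GLY replicate 6 lay at a median of 0.562 over 237 probe sets and ARG replicate 1 at 0.522 over 150, while the other 10 arrays lay between -0.24 and 0.251. Whether these 2 hearts carry the right label was not tested, and each group value below rests on the labels as given. Calls are therefore given with and without GLY replicate 6, and the part ARG replicate 1 plays is shown by counts. The mean SD between hearts was 0.192 in ARG and 0.221 in GLY, against 0.143 in NTG. The 3' to 5' ratio of the Gapdh control probe sets, a mark of RNA degradation, spanned -0.04 to 0.08 in ARG and -0.01 to 0.16 in GLY (log2, relative to the deposited centre). That of Actb spanned -0.07 to 0.21 in ARG, 0.04 to 0.16 in GLY and -0.19 to 0.13 in NTG. The labels name no batches. Each NTG array had a median log2 ratio between -0.012 and 0.006, so these medians cannot show whether replicates 1 to 3 and 4 to 6 were centred apart. The main results carry the change within each of these sets of 3 as a description.

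**Figure D1:**
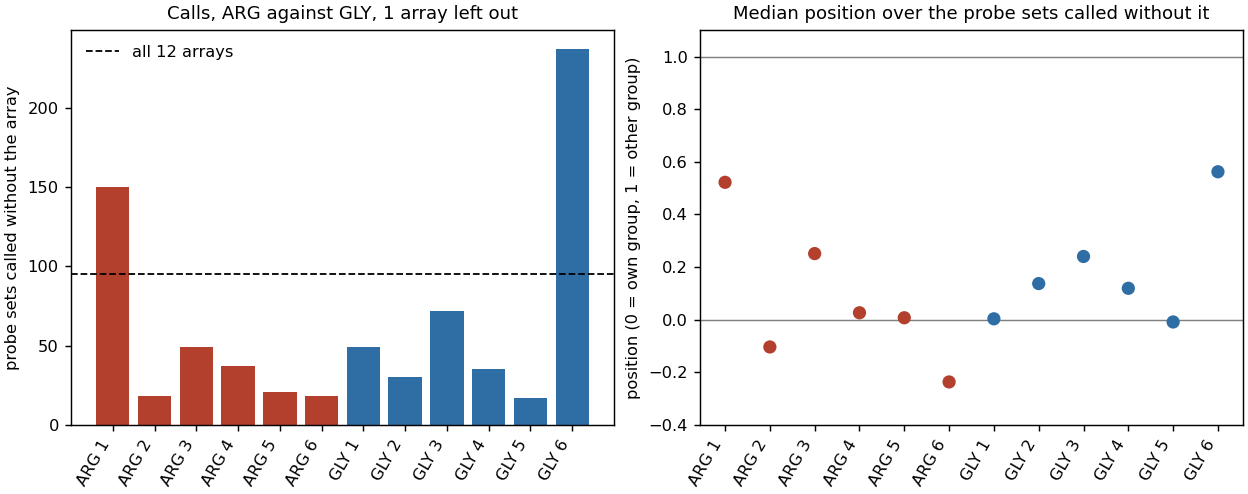
Effect of leaving out each of the 12 arrays (ARG red, GLY blue). Left, bars give the number of probe sets called in ARG against GLY without that array, with the dashed line at the 95 called with all 12; right, points give the median position of the array left out over those calls, where 0 is the mean of its own group and 1 that of the other group, and GLY replicate 6 (0.562) and ARG replicate 1 (0.522) stand nearest the middle.

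Across the whole array, few probe sets were called between the receptor lines, and the number called changed with the fit. Of 45037 probe sets, 95 (0.211%) were called at an adjusted p under 0.05 by limma with Benjamini-Hochberg adjustment. In ARG hearts 58 of them rose (0.129%, 40 named genes) and 37 fell (0.0822%, 24 named genes). At an unadjusted p under 0.05 there were 3913. By at least 1.5-fold, 52 rose and 24 fell. Without GLY replicate 6, 237 probe sets were called (0.526%), of which 147 rose (0.326%) and 90 fell (0.2%). All 95 were among those 237 with the same direction, and 142 were called without that heart but not with it. A fit of all 24 arrays, which keeps that heart and shares 1 spread over the 4 groups, called 678, among them Ccl8, Timp1, Pde3b and Rcan1. The values of all 6 ARG hearts lay outside the range of all 6 GLY hearts at 357 probe sets (0.793%), 118 of them higher and 239 lower in ARG. Without GLY replicate 6 this held at 812 (1.8%). The median change over all genes was -0.03, or -0.04 without that heart.

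The calls depended on single hearts. With 1 of the other hearts left out, the number called was 150 without ARG replicate 1, 18 without ARG replicate 2, 49 without ARG replicate 3, 37 without ARG replicate 4, 21 without ARG replicate 5 and 18 without ARG replicate 6. It was 49 without GLY replicate 1, 30 without GLY replicate 2, 72 without GLY replicate 3, 35 without GLY replicate 4 and 17 without GLY replicate 5. In the 12 fits that each left out 1 heart, all 95 probe sets kept their direction. They were chosen over these same hearts, so this was nearly fixed in advance and is no separate support. Of the 95, 14 were called in all 12 fits, 7 that rose and 7 that fell, and 10 of these have a gene symbol. The genes were Ccl9, Zbtb16, Ms4a6b, Sdf2l1 and Uap1 among the rises and Stc2, Smim5, Klf2 and Entpd5 among the falls. For genes described below, the number of these 12 fits in which a gene was called is given where it bears on the result.

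**Figure D2:**
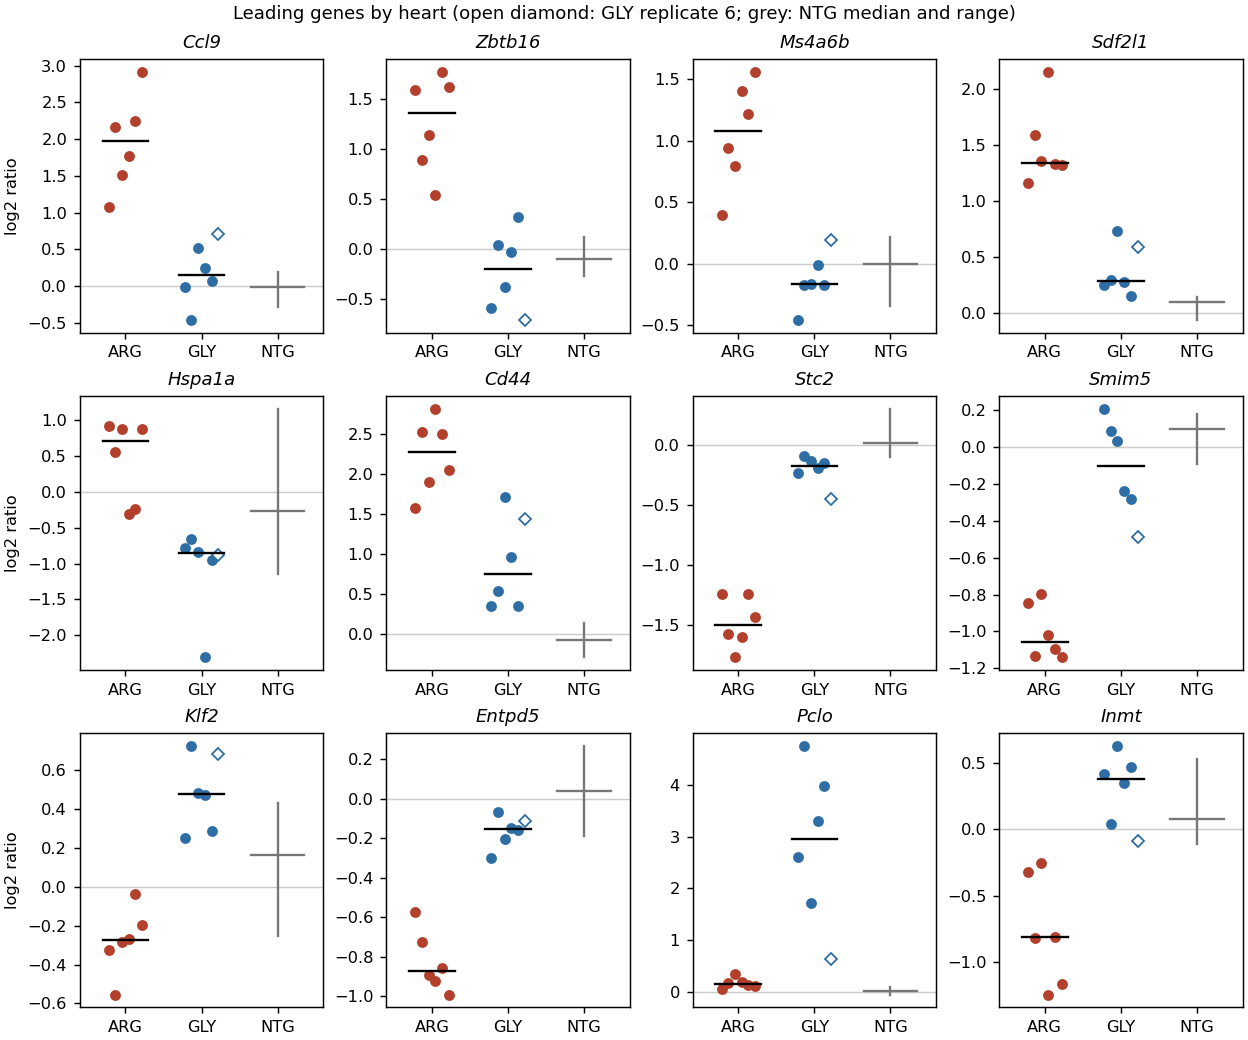
Log2 ratio of 12 genes in every ARG heart (red) and GLY heart (blue), with the group medians as black lines; GLY replicate 6 is an open diamond, and the grey cross gives the median and range of the 6 NTG hearts. The lines did not overlap for any of these genes except Cd44. GLY replicate 6 is the GLY heart nearest ARG for Ccl9, Ms4a6b, Stc2, Smim5, Pclo and Inmt, and the farthest from it for Zbtb16. The axes differ between panels.

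The smallest adjusted p was that of Stc2, which encodes the secreted glycoprotein stanniocalcin-2. Its log2 ratio ran from -1.77 through a median of -1.5 to -1.24 in ARG hearts, and from -0.45 through -0.18 to -0.10 in GLY hearts, against an NTG median of 0.01. Every ARG heart was far below every GLY heart. Stc2 fell by 1.27 ± 0.10 (SE, n = 6 hearts per line, adjusted p = 8.89e-05), a 2.41-fold lower ratio, and by 1.31 without GLY replicate 6. Replicates 1 to 3 alone gave a change of -1.38 and replicates 4 to 6 alone one of -1.16. Of 3 probe sets for Stc2, this was the 1 called.

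Zbtb16 encodes the zinc finger repressor PLZF, which glucocorticoids induce. It ranged from 0.53 through 1.36 to 1.78 in ARG hearts and from -0.72 through -0.20 to 0.31 in GLY hearts. The lowest GLY value was that of replicate 6, so here that heart lay on the far side from ARG. Zbtb16 rose by 1.49 ± 0.22 (adjusted p = 0.0131), 2.8-fold, and by 1.39 without GLY replicate 6. A second Zbtb16 probe set rose by 1.44 ± 0.17, and both were called in all 12 fits with 1 heart left out. GLY hearts lay near NTG, whose median was -0.10.

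Pclo encodes piccolo, a scaffold protein of the presynaptic active zone, and had the largest difference of all called genes. Its ratio was 0.07 to 0.34 in ARG hearts, with a median of 0.15, and 0.64 to 4.76 in GLY hearts, with a median of 2.96. In NTG hearts it was -0.05 to 0.09. The difference thus lay in GLY hearts, which were above NTG by amounts that varied widely, while ARG hearts were close to NTG. Pclo fell by 2.66 ± 0.50 in ARG against GLY (adjusted p = 0.0441), and the change was -3.10 ± 0.38 without GLY replicate 6, the lowest GLY heart (adjusted p = 0.0039). It was called in 2 of the 12 fits with 1 heart left out, and by 1 of its 3 probe sets.

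Other called falls with no overlap were smaller. Inmt, a methyltransferase of indole amines, fell by 1.07 ± 0.17, with -1.24 to -0.25 in ARG hearts and -0.09 to 0.63 in GLY hearts. Fign, the microtubule-severing ATPase fidgetin, fell by 0.97 ± 0.16 at 1 of 3 probe sets. Smim5, which encodes a small membrane protein, ran from -1.14 to -0.80 in ARG hearts and from -0.49 to 0.21 in GLY hearts, and fell by 0.89 ± 0.12 (adjusted p = 0.0112). Smim5 was called in all 12 fits. Entpd5, a nucleotide diphosphatase of the endoplasmic reticulum, fell at 4 of its 6 probe sets, by 0.66 ± 0.09 at the one called in all 12 fits. Nedd4l, a ubiquitin ligase that acts on ion channels, fell by 0.83 ± 0.15 at 1 of 6 probe sets. Penk, the precursor of enkephalins, fell by 0.75 ± 0.14, and Ttc30a1, a protein of ciliary transport, by 0.62 ± 0.10. Trim7, a ubiquitin ligase that binds glycogenin, fell by 0.68 ± 0.13 at 1 of 3 probe sets. The adjusted p values of these genes lay between 0.0112 and 0.0441, and without GLY replicate 6 each stayed called. Inmt was called in 6 of the 12 fits, Fign, Nedd4l and Ttc30a1 in 4, Trim7 in 3 and Penk in 2.

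Outside the groups described further below, the largest rises were of mixed function. Ell2, an elongation factor of RNA polymerase II, rose by 1.20 ± 0.18, with 0.51 to 1.08 in ARG hearts and -1.02 to 0.29 in GLY hearts. Slc5a3, the sodium and myo-inositol cotransporter, rose by 1.18 ± 0.21, and Hccs, which attaches haem to cytochrome c, by 1.16 ± 0.22. For Slc5a3 and Hccs the ARG medians were 0.13 and 0.12 and the GLY medians -0.93 and -0.83, against NTG medians of -0.06 and -0.27. The GLY median of Hccs lay inside the NTG range of -0.86 to 0.24. Gda, guanine deaminase, rose by 0.94 ± 0.17, and Msl3, a subunit of a histone acetyltransferase complex, by 0.93 ± 0.14. Msl3 had a median of 0.33 in ARG hearts and -0.72 in GLY hearts. Uap1, which makes UDP-N-acetylglucosamine, rose at 2 of 5 probe sets, by 0.77 ± 0.11 at the one called in all 12 fits (adjusted p = 0.0112). Without GLY replicate 6 all 6 genes stayed called, and the rises of Slc5a3 and Hccs were 1.31 each. In the 12 fits with 1 heart left out, however, Hccs was called in 1, Slc5a3 and Gda in 3, and Ell2 and Msl3 in 10. Slc5a3 and Gda were called at 1 of 3 probe sets each, and Ell2 and Hccs at 1 of 2. The rise of Hccs was 1.73 in replicates 1 to 3, against 0.60 in replicates 4 to 6, and that of Slc5a3 was 1.55 and 0.81. GLY replicates 1 and 3 were the lowest GLY hearts for both, at -1.84 and -1.65 for Hccs and -1.46 and -1.45 for Slc5a3.

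**Figure D3:**
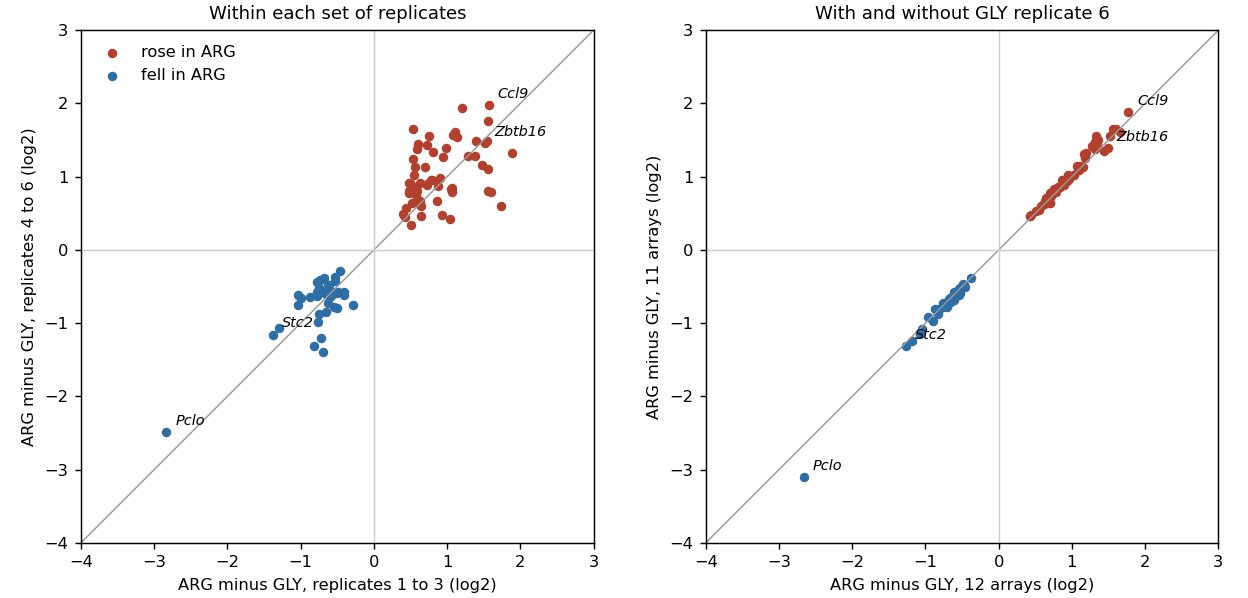
The 95 probe sets called in ARG against GLY, with rises in red and falls in blue and the diagonal as equality. Left, the log2 change in replicates 1 to 3 (horizontal) against that in replicates 4 to 6 (vertical), with all 95 on the same side of 0 in both. The 95 were called over these same 12 arrays, so shared signs were nearly fixed in advance and give no separate support. Right, the change over 12 arrays against that over the 11 arrays without GLY replicate 6, where Pclo moved most, to -3.10.

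To read gene groups, 1 probe set per gene was taken by its suffix and number, not by its values. Of 18193 genes read in this way, 27 rose (0.148%) and 16 fell (0.0879%), and without GLY replicate 6 69 rose (0.379%) and 39 fell (0.214%). Of the 18193 changes with all hearts, 7544 were above 0. Counts of list members below are to be read beside these values.

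The pathway of the receptor itself was not called. Of 26 measured genes of beta-adrenergic and cyclic AMP signalling none was called, with or without GLY replicate 6, and their median change was 0.06 (0.12 without that heart). The member with the smallest p was Adra1b, an alpha1-adrenergic receptor, at -0.68 to -0.19 in ARG hearts and -0.23 to 0.20 in GLY hearts (change -0.41 ± 0.10, adjusted p = 0.142, or 0.1 without GLY replicate 6). Adcy5, the cyclase isoform of heart muscle, changed by 0.17 ± 0.12 (adjusted p = 0.724, or 0.581 without GLY replicate 6), and Adcy6, the other main cardiac cyclase, by -0.08 ± 0.12 (adjusted p = 0.896, or 0.839). The Adcy6 medians were -0.52 in ARG and -0.35 in GLY hearts, below the NTG median of -0.01 in both.

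Of 14 receptor kinases, arrestins and RGS proteins none was called. Grk5, a kinase that phosphorylates occupied receptors, had 0.95 to 1.5 in ARG hearts and -0.02 to 1.31 in GLY hearts, and the groups overlapped (change 0.50 ± 0.19, adjusted p = 0.437, or 0.199 without GLY replicate 6). Arrb2, an arrestin, had the smallest p of this list, with a change of 0.67 ± 0.23 (adjusted p = 0.349, or 0.209). Of 15 cyclic nucleotide phosphodiesterases none was called with all hearts. Pde3b, which breaks down cyclic AMP, had medians of 0.79 in ARG and 0.13 in GLY hearts and was called without GLY replicate 6 (0.73 ± 0.14, adjusted p = 0.0337) but not with all 12 hearts. In these lists the lack of calls does not show that the lines were alike, since the median SE over all probe sets was 0.11.

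Some heat shock genes rose in ARG against GLY hearts. Of 24 measured cytosolic and mitochondrial chaperones 3 rose in ARG and none fell, with a median change of 0.26 (0.31 without GLY replicate 6). The per-heart median of the list ran from -0.06 to 0.06 in ARG hearts, from -0.55 to -0.01 in GLY hearts and from -0.12 to 0.09 in NTG hearts. The list's median in each ARG heart thus lay within the NTG range, and in 5 of 6 GLY hearts it lay below the whole NTG range. GLY replicate 6, at -0.01, was the exception. The change of the list was 0.39 in replicates 1 to 3 and 0.09 in replicates 4 to 6, or 0.13 there without GLY replicate 6.

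The called members were Hspa1a, Hspa1b and Hspb1. Hspa1a and Hspa1b encode the inducible Hsp70 chaperones, which bind unfolded proteins. Their coding sequences are nearly identical, so their probe sets may read each other's transcripts. Hspa1a had -0.30 to 0.92 in ARG hearts, with a median of 0.72, and -2.31 to -0.65 in GLY hearts, with a median of -0.85. Hspa1b had -0.81 to 1.21 in ARG hearts and -2.64 to -1.23 in GLY hearts. Neither gene overlapped between the lines, but NTG hearts alone spanned -1.14 to 1.17 for Hspa1a. Hspa1a rose by 1.52 ± 0.28 (adjusted p = 0.0441) and Hspa1b, at 1 of its 3 probe sets, by 1.60 ± 0.31 (adjusted p = 0.0473). Each was called in 3 of the 12 fits with 1 heart left out. Hspb1, the small chaperone Hsp27, had 0.34 to 0.59 in ARG hearts and -0.13 to 0.21 in GLY hearts, and rose by 0.43 ± 0.08 (adjusted p = 0.0473). For Hspb1 the NTG median, 0.05, lay near the GLY hearts, and for Hspa1a, at -0.26, between the lines. Hspb1 was called in 3 of the 12 fits as well. These 3 stayed called with GLY replicate 6 left out. Hsp90aa1, the inducible Hsp90, was called then but not with all 12 (1.17 ± 0.22, adjusted p = 0.0303). GLY replicates 1 and 3 were its lowest GLY hearts, at -1.54 and -1.39.

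Heat shock factors bind the letters GAANNTTC and their repeats. The promoters of the 3 called chaperone genes are shown because all 3 hold these letters within 250 bases before the start site. Stretches are from the RefSeq promoter table on GRCm38.p6, written 5' to 3' on the gene's strand, and the matched letters are in capitals. The stretches are chr17:34972233-34972280 on the minus strand for Hspa1a, chr17:34959315-34959362 on the minus strand for Hspa1b and chr5:135887782-135887849 on the plus strand for Hspb1.
Hspa1a: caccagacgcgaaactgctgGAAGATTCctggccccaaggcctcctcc
Hspa1b: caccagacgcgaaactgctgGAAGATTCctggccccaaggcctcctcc
Hspb1: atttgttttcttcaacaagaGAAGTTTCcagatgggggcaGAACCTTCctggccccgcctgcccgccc
The stretches of Hspa1a and Hspa1b are the same letter for letter, with the match starting 104 bases before the start site, and Hspb1 holds 2 matches. The search covered both strands, and 9.04% of the 27025 genes in the table hold GAANNTTC. Among 32 genes with a promoter that rose, 5 held it, and among 19 that fell, 2 did. A longer form with 3 units was in 0.662% of genes and in none of the 32. A match describes letters only and is no evidence of binding.

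Genes of protein folding in the endoplasmic reticulum were higher in ARG hearts on the median. Of 28 measured genes 2 rose with all hearts and none fell, 25 changes were above 0, and the median change was 0.35 (0.42 without GLY replicate 6). The per-heart median was 0.10 to 0.67 in ARG hearts and -0.05 to 0.19 in GLY hearts, against -0.08 to 0.07 in NTG hearts. GLY replicate 6 was the highest GLY heart. Sdf2l1, a partner of the chaperone BiP, had 1.16 to 2.16 in ARG hearts and 0.15 to 0.73 in GLY hearts. It rose by 1.11 ± 0.15 (adjusted p = 0.0112), 2.15-fold, and was called in all 12 fits. Manf, a stress-induced factor of the endoplasmic reticulum, had medians of 1.01 in ARG and 0.17 in GLY hearts and rose by 0.78 ± 0.13 (adjusted p = 0.0269). Manf was called in 3 of the 12 fits. A further gene was called without GLY replicate 6, Hspa5, which encodes BiP itself (0.76 ± 0.16, adjusted p = 0.0456). With all hearts Hspa5 changed by 0.68 ± 0.16 (adjusted p = 0.109), with 0.09 to 0.62 in ARG hearts and -0.89 to 0.05 in GLY hearts.

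The promoter of Hspa5 is shown because it holds the complete endoplasmic reticulum stress element, bound by ATF6 with NF-Y, at chr2:34772005-34772063 on the plus strand, with the element in capitals.
Hspa5: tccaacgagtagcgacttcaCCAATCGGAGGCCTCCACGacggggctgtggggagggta
The element starts 65 bases before the start site and is in 0.137% of genes. None of the 32 genes that rose with all hearts holds this strict form.

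Of 23 genes for serine and asparagine synthesis and other targets of the transcription factor ATF4, 1 rose. This was Chac1, an enzyme that degrades glutathione, with 0.54 to 1.86 in ARG hearts and -0.08 to 0.75 in GLY hearts (1.10 ± 0.21, adjusted p = 0.0486). Its rise was 0.54 in replicates 1 to 3 and 1.66 in replicates 4 to 6, and it was called in 3 of the 12 fits with 1 heart left out. Without GLY replicate 6 the list had 3 rises, and Asns, asparagine synthetase, was among them (0.97 ± 0.19, adjusted p = 0.0348). Trib3, a pseudokinase of the same list, rose by 0.58 ± 0.11 at a probe set other than the one the list reads, and Nupr1, a stress-response gene outside it, by 0.87 ± 0.14 at the first of its 2 called probe sets. For all 4 genes the NTG medians lay between -0.09 and 0.04. Trib3 was called in 2 of the 12 fits and Nupr1, at that first probe set, in 7.

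**Figure D4:**
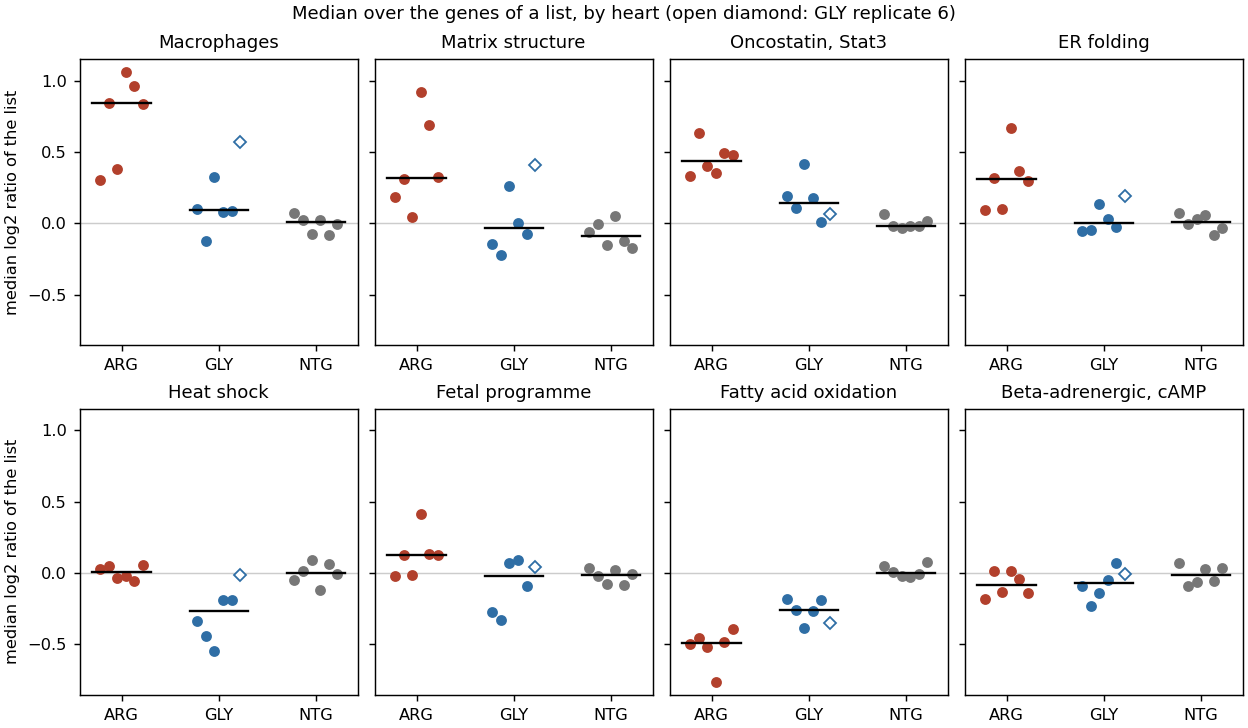
Median log2 ratio over the genes of 8 lists in each ARG (red), GLY (blue) and NTG (grey) heart, with group medians as black lines and GLY replicate 6 as an open diamond. GLY replicate 6 is the highest GLY heart for macrophage, matrix, endoplasmic reticulum (ER) and heat shock genes; the ARG and GLY hearts overlap in every list shown except fatty acid oxidation, where they meet at -0.39.

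Some genes of macrophages and their chemokines rose in ARG hearts. In whole hearts, more cells of a type and more RNA per cell cannot be told apart, and this holds for each cell type named here. Of 22 measured macrophage genes 3 rose with all hearts and 6 without GLY replicate 6, and none fell. The median change was 0.60, or 0.73 without that heart, and 21 of 22 changes were above 0. The per-heart median ran from 0.30 to 1.06 in ARG hearts and from -0.12 to 0.57 in GLY hearts, against -0.08 to 0.07 in NTG hearts. GLY replicate 6 held the 0.57, and the highest of the other GLY hearts was at 0.32. The median change of the list was 0.47 in replicates 1 to 3 and 0.75 in replicates 4 to 6.

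The called macrophage genes were Ctss, Cd14 and Fcgr3. Ctss, the lysosomal protease cathepsin S, had 0.71 to 1.85 in ARG hearts and -0.65 to 1.11 in GLY hearts, where replicate 6 had the 1.11. It rose by 1.33 ± 0.25 (adjusted p = 0.0441), and by 1.55 ± 0.19 without that heart (adjusted p = 0.0039). Cd14, a co-receptor for lipopolysaccharide, rose by 0.92 ± 0.18 (adjusted p = 0.0479), and Fcgr3, an activating receptor for IgG, by 0.84 ± 0.16 (adjusted p = 0.0475). Of the 12 fits with 1 heart left out, Ctss and Fcgr3 were called in 3 and Cd14 in 2. The general macrophage marker Cd68 was not called (0.68 ± 0.22, adjusted p = 0.32, or 0.173 without GLY replicate 6), with 0.61 to 1.38 in ARG hearts and -0.59 to 1.03 in GLY hearts. The calls without GLY replicate 6 included Ms4a7, a membrane protein of resident macrophages (1.19 ± 0.21, adjusted p = 0.0234).

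Further genes of myeloid cells that this list does not hold rose. Ms4a6b and Ms4a6d, membrane proteins of the same family, rose by 1.18 ± 0.17 and 1.36 ± 0.24. Ms4a6b had 0.40 to 1.56 in ARG hearts and -0.46 to 0.20 in GLY hearts, both of its probe sets were called, and this one was called in all 12 fits. Fcgr2b, the inhibitory receptor for IgG, rose by 1.07 ± 0.18 at 1 of 5 probe sets, and C5ar1, the receptor for complement C5a, by 0.87 ± 0.16. Itgb2, the beta2 integrin of leukocytes, rose by 0.64 ± 0.12, and Tlr7, a sensor of single-stranded RNA, by 0.72 ± 0.12. The adjusted p values of these genes lay between 0.0131 and 0.0456, and all stayed called without GLY replicate 6. Ms4a6d, C5ar1 and Itgb2 were called in 3 of the 12 fits, Fcgr2b in 4 and Tlr7 in 5. Ms4a6d and Tlr7 were called at 1 of 3 probe sets each, and C5ar1 at 1 of 2. The complement list, whose C1q genes are made by macrophages, had none called among 13 at the probe sets it reads, which for C5ar1 is another one. Its median change was 0.30, and C1qa had 0.26 to 1.23 in ARG hearts and -0.58 to 0.61 in GLY hearts (0.67 ± 0.21, adjusted p = 0.27, or 0.115 without GLY replicate 6).

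Of 23 chemokine and cytokine genes 2 rose, Ccl9 and Ccl2. Ccl9, a chemokine made by myeloid cells, had 1.07 to 2.92 in ARG hearts, with a median of 1.97, and -0.47 to 0.71 in GLY hearts, with a median of 0.15. It rose by 1.77 ± 0.26 (adjusted p = 0.0131), 3.41-fold, the largest called rise. The second probe set of Ccl9 rose by 1.57 ± 0.25. Ccl2, which recruits monocytes, had 0.68 to 1.37 in ARG hearts and -0.23 to 0.42 in GLY hearts, and rose by 0.76 ± 0.13 (adjusted p = 0.0312). Ccl6, a relative of Ccl9, rose by 1.32 ± 0.23 at 1 of its 2 probe sets, which is not the one the list reads (adjusted p = 0.0313). Ccl2 and Ccl6 were each called in 3 of the 12 fits with 1 heart left out. Ccl8, which attracts monocytes, was called without GLY replicate 6 but not with all 12 hearts. It had 2.23 to 4.47 in ARG hearts and 0.42 to 2.95 in GLY hearts, and the 2.95 was that heart (change 1.89 ± 0.44, adjusted p = 0.11, against 2.17 ± 0.41, adjusted p = 0.0309, without it). The macrophage list, with the per-heart values given above, was higher in the same line, and its part in the chemokine values was not tested.

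Of 23 genes of oncostatin, Stat3 and the acute phase 5 rose and none fell, with a median change of 0.27 (0.30 without GLY replicate 6). Per-heart medians ran from 0.33 to 0.63 in ARG hearts and from 0.01 to 0.42 in GLY hearts. Here GLY replicate 6, at 0.07, lay among the lower GLY hearts. Osmr, the oncostatin M receptor, had 0.33 to 1.15 in ARG hearts and -0.70 to 0.22 in GLY hearts, and rose by 0.94 ± 0.16 (adjusted p = 0.0278) at 1 of 3 probe sets. Socs3, which Stat3 induces and which inhibits cytokine receptors, rose at all 3 of its probe sets, by 0.98 ± 0.19 at the one the list reads (adjusted p = 0.0441). Nfil3, a bZIP repressor, was above NTG in both lines, with 1.17 to 1.94 in ARG and 0.27 to 1.09 in GLY hearts, and rose by 0.87 ± 0.16 (adjusted p = 0.036). Ch25h, which makes 25-hydroxycholesterol, rose by 0.70 ± 0.13 (adjusted p = 0.0441). Cd14, given above, is the fifth. All 5 stayed called without GLY replicate 6, and Timp1 joined them. Of the 12 fits with 1 heart left out, however, Osmr was called in 5, Socs3 at that probe set in 4, and Nfil3 and Ch25h in 3.

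Socs3 and Ch25h are shown for a pair of motifs that belong to the receptor pathway and to Stat3. The letters TTCNNNGAA are bound by STAT proteins and TGACGTCA by CREB, the transcription factor that protein kinase A activates. The stretches are chr11:117969492-117969540 for Socs3 and chr19:34475182-34475229 for Ch25h, both on the minus strand.
Socs3: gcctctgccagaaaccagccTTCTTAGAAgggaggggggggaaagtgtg
Ch25h: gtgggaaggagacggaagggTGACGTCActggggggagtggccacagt
The first motif is in 9.55% of genes and in 2 of the 32 that rose, and in none of the 19 that fell. The second is in 2.03% of genes, in 2 of the 32 and in 1 of the 19.

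Matrix genes were higher in ARG hearts on the median, but few were called. Of 31 measured genes of matrix structure none was called with all hearts, although 28 changes were above 0 and the median change was 0.38 (0.41 without GLY replicate 6). Per-heart medians were 0.05 to 0.92 in ARG hearts and -0.22 to 0.41 in GLY hearts, with GLY replicate 6 at 0.41. Col1a2, a chain of type I collagen, had the smallest p, with 0.41 to 1.45 in ARG hearts and -0.15 to 0.48 in GLY hearts (0.73 ± 0.17, adjusted p = 0.105). Without GLY replicate 6 Col1a2 changed by 0.80 ± 0.17 (adjusted p = 0.0533), and 3 other genes were called. These were Postn, the matricellular protein periostin (1.41 ± 0.25, adjusted p = 0.0255), Thbs1, thrombospondin-1 (0.76 ± 0.14, adjusted p = 0.0303), and Col5a2, a chain of type V collagen (0.79 ± 0.15, adjusted p = 0.0337). Col1a1 and Col3a1 were called in neither fit, with changes of 0.70 ± 0.27 and 1.09 ± 0.32 over all hearts. The median change of the list was 0.24 in replicates 1 to 3 and 0.54 in replicates 4 to 6.

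Of 22 genes of matrix crosslinking and turnover 2 rose with all hearts and none fell. P4ha1, the prolyl hydroxylase subunit that collagen needs to fold, had 0.38 to 1.08 in ARG hearts and -0.44 to 0.00 in GLY hearts. It rose by 0.81 ± 0.12 (adjusted p = 0.0135) and was called in 11 of 12 fits. Serpinh1, the collagen chaperone Hsp47, had 0.41 to 0.94 in ARG hearts and -0.30 to 0.37 in GLY hearts, and rose by 0.66 ± 0.12 (adjusted p = 0.036), called in 3 of 12 fits. Both genes rose at both of their probe sets. Timp1, an inhibitor of matrix metalloproteinases, was called without GLY replicate 6 but not with all 12 hearts. It had 2.08 to 3.86 in ARG hearts and 0.42 to 2.21 in GLY hearts, with that heart at 2.21 (1.5 ± 0.33, adjusted p = 0.085, against 1.69 ± 0.31, adjusted p = 0.0289, without it). Cd44, a receptor for hyaluronan and the called gene of 21 in its list, had 1.57 to 2.82 in ARG hearts and 0.34 to 1.71 in GLY hearts, and rose by 1.34 ± 0.25 (adjusted p = 0.0441). It was called at 1 of 4 probe sets and in 3 of 12 fits. Lgals3, galectin-3 of activated macrophages, was high in both lines, at 2.07 to 3.30 in ARG and 0.74 to 2.84 in GLY hearts, and was not called (1.26 ± 0.33, adjusted p = 0.159, or 0.0706 without GLY replicate 6). In the list of TGF-beta signalling none of 19 was called, and Ccn2, a growth factor of fibrosis, changed by 1.20 ± 0.28 (adjusted p = 0.114, or 0.0778 without GLY replicate 6), by 0.55 in replicates 1 to 3 and 1.85 in replicates 4 to 6. Of 12 fibroblast markers none was called with all hearts and 1, Medag, without GLY replicate 6. Their median change was 0.21 (0.25 without that heart), and 11 changes were above 0. Per-heart medians were 0.11 to 0.33 in ARG hearts and -0.17 to 0.19 in GLY hearts. Col1a1, Dcn, Lum and Mfap5 are in both this list and that of matrix structure. The macrophage list was higher in ARG hearts as well, at 0.30 to 1.06 against -0.12 to 0.57 in GLY hearts. The part of the fibroblast and macrophage lists in the matrix values was not tested.

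Among genes of the heart muscle itself few were called. Of 19 genes of the fetal and hypertrophy programme 1 rose. Myh7, the slow beta-myosin heavy chain that mouse ventricles switch on in hypertrophy, had 0.18 to 1.25 in ARG hearts and -0.92 to 0.21 in GLY hearts, with an NTG median of 0.05. It rose by 1.03 ± 0.20 (adjusted p = 0.0473), by 0.60 in replicates 1 to 3 and 1.45 in replicates 4 to 6, and was called in 3 of the 12 fits. The GLY median, -0.54, was below NTG. Myh6, the fast alpha-myosin heavy chain whose promoter drives both transgenes, did not pass, with medians of -0.37 in ARG and -0.25 in GLY hearts (change -0.03 ± 0.21, adjusted p = 0.978, or 0.988 without GLY replicate 6). Nppa, the atrial natriuretic peptide, had 0.25 to 2.41 in ARG hearts and -0.92 to 1.02 in GLY hearts and was not called (1.16 ± 0.34, adjusted p = 0.249, or 0.086 without GLY replicate 6). Rcan1, an inhibitor and target of calcineurin, was not called with all 12 hearts (0.73 ± 0.17, adjusted p = 0.0966) and was called in 2 of the 12 fits with 1 left out, among them that without GLY replicate 6 (0.83 ± 0.16, adjusted p = 0.0312). Abra, an actin-binding protein of striated muscle, stood outside the list and rose by 1.32 ± 0.21 (adjusted p = 0.0196), with 0.46 to 1.38 in ARG hearts and -0.88 to 0.49 in GLY hearts.

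Of 32 sarcomere and Z disc genes none was called with all hearts. Mylk4, a myosin light chain kinase, was low in both lines, at -2.53 to -1.60 in ARG and -1.48 to -0.35 in GLY hearts, and had the smallest p (-0.92 ± 0.21, adjusted p = 0.103, or 0.0528 without GLY replicate 6). Tmod4, a tropomodulin that caps actin filaments, fell without GLY replicate 6 (-1.27 ± 0.26, adjusted p = 0.0444), when the GLY heart nearest ARG, at -1.71, was left out. Of 29 calcium-handling genes none was called, and Camk2g changed by -0.34 ± 0.09 (adjusted p = 0.19, or 0.141 without GLY replicate 6). Of 21 ion channel and gap junction genes none was called, but 4 changes were above 0 and the median was -0.21. Gjc1, connexin 45, had -0.64 to -0.46 in ARG hearts and -0.37 to 0.08 in GLY hearts, without overlap (-0.33 ± 0.09, adjusted p = 0.17, or 0.168 without GLY replicate 6). The 14 markers of heart muscle cells had a median change of 0.01, and none was called. Since ratios hold no level, the markers show change only and could not be used to check which cells were in the sample.

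Genes of fatty acid use were lower in ARG than in GLY hearts on the median. Of 32 measured genes of uptake and oxidation none was called with all hearts and 3 fell without GLY replicate 6. The median change was -0.22 (-0.20 without that heart), 5 changes were above 0, and the median was -0.15 in replicates 1 to 3 and -0.26 in replicates 4 to 6. Per-heart medians were -0.76 to -0.39 in ARG hearts and -0.39 to -0.19 in GLY hearts, against -0.03 to 0.08 in NTG hearts, so both lines were below NTG. The 3 genes called without that heart were Acot1, an acyl-CoA thioesterase (-1.23 ± 0.17, adjusted p = 0.0115), Slc25a20, the mitochondrial carnitine carrier (-0.53 ± 0.11, adjusted p = 0.0437), and Acaa2, the thiolase of mitochondrial beta-oxidation (-0.47 ± 0.10, adjusted p = 0.0499). GLY replicate 6 was the lowest GLY heart for all 3, at -1.30, -0.58 and -0.25.

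Ehhadh, an enzyme of peroxisomal beta-oxidation, had -1.10 to -0.68 in ARG hearts and -0.57 to -0.03 in GLY hearts, and fell by 0.62 ± 0.11 (adjusted p = 0.03). Slc27a1, a fatty acid transport protein, had -0.73 to -0.49 in ARG hearts and -0.40 to 0.07 in GLY hearts, and fell by 0.55 ± 0.09 (adjusted p = 0.0289) at a probe set other than the one the list reads. Mid1ip1, a regulator of lipid synthesis, fell by 0.55 ± 0.09 (adjusted p = 0.0214), and Ephx2, the soluble epoxide hydrolase, by 0.46 ± 0.09 (adjusted p = 0.0475). Slc27a1, Mid1ip1 and Ephx2 were picked from all calls after their values were seen, and Ehhadh was named by the rule for the largest falls. None of these 4 genes overlapped between the lines and all stayed called without GLY replicate 6. In the 12 fits with 1 heart left out, however, Ephx2 was called in 1, Slc27a1 in 3, Ehhadh in 4 and Mid1ip1 in 8. None of 26 citric acid cycle, 68 oxidative phosphorylation, 20 branched-chain amino acid and 23 glucose genes was called, also without that heart, with median changes of -0.06, -0.07, -0.11 and -0.02. Among PPAR, ERR and coactivator genes none of 15 was called, and Rxrg changed by -0.23 ± 0.11 (adjusted p = 0.593, or 0.414 without GLY replicate 6).

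Some transcription factors and stress genes fell in ARG hearts. Klf2, a shear-stress factor of endothelium, had -0.55 to -0.04 in ARG hearts and 0.25 to 0.72 in GLY hearts, on either side of the NTG median of 0.16. The NTG hearts spanned -0.25 to 0.43, which overlaps both lines. Klf2 was not called against NTG in either line. In ARG against GLY hearts it fell by 0.76 ± 0.11 (adjusted p = 0.0121) and was called in all 12 fits. None of 16 endothelial markers was called, with a median change of -0.05. Jun, a subunit of AP-1, had -0.69 to -0.21 in ARG hearts and -0.15 to 0.31 in GLY hearts, and fell by 0.61 ± 0.10 (adjusted p = 0.0262). Jun was called at 1 of 2 probe sets and in 5 of the 12 fits. It was the called gene among 27 immediate early and CREB target genes, whose median change was -0.04. Gadd45a, a growth arrest gene, was below NTG in both lines, at -1.27 to -0.77 in ARG and -0.53 to -0.31 in GLY hearts, and fell by 0.56 ± 0.09 (adjusted p = 0.0217). It was the called gene of 19 in its list with all hearts, and was called in 6 of the 12 fits. That list had 1 rise and 2 falls without GLY replicate 6.

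Hlf, a clock-output factor of the PAR bZIP family, fell by 0.71 ± 0.13 (adjusted p = 0.0468) at 1 of 2 probe sets, with -0.97 to -0.33 in ARG hearts and -0.28 to 0.47 in GLY hearts. Hlf was called in 2 of the 12 fits with 1 heart left out. Dbp, of the same family, had -1.31 to -0.21 in ARG hearts and -0.20 to 0.56 in GLY hearts and was not called (-0.83 ± 0.18, adjusted p = 0.0869, or 0.0533 without GLY replicate 6). Nfil3, which binds the same sites as a repressor and is given above, was the member of 18 circadian genes called at the probe set the list reads. The sources used here do not give the time of day of tissue collection, and its part was not tested. F3, tissue factor, fell by 0.53 ± 0.09 (adjusted p = 0.0217), and Tcf15, a bHLH factor of heart endothelium, by 0.49 ± 0.09 (adjusted p = 0.0441). Both lacked overlap between the lines. F3 was called in 5 of the 12 fits and Tcf15 in 2.

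Of the genes called without GLY replicate 6 but not with all 12 hearts, those with the largest change were all higher in ARG. Besides Ccl8 and Timp1 they were Cd24a, a glycoprotein of many progenitor cells (1.93 ± 0.32, adjusted p = 0.0173), Fgl2, a coagulant made by macrophages (1.5 ± 0.29, adjusted p = 0.0338), and Mthfd2, a mitochondrial enzyme of folate metabolism (1.46 ± 0.29, adjusted p = 0.0384). A second Hspa1b probe set also joined them (1.5 ± 0.31, adjusted p = 0.0493). With all hearts the changes of these 4 were 1.68, 1.22, 1.19 and 1.44. For Cd24a, Fgl2 and Mthfd2 that heart was the highest GLY heart, at 2.30, 0.71 and 1.90, within the range of the ARG hearts. Rad51b, a DNA repair gene, was far above NTG in both lines, at 4.11 to 4.52 in ARG and 1.60 to 4.62 in GLY hearts, where replicate 6 had the 4.62, and was called in neither fit (0.96 ± 0.39, adjusted p = 0.479, or 0.164 without GLY replicate 6).

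Markers of other cells and tissues showed no call in either fit. This held for 9 lymphocyte, 3 red blood cell, 8 atrial, 10 skeletal muscle, 8 adipocyte, 11 smooth muscle and pericyte, and 10 lung and thymus genes. Median changes of these lists were -0.02, -0.25, -0.09, -0.08, -0.08, -0.12 and -0.01. Adipoq, the fat cell hormone adiponectin, was the member closest to a call, with -1.31 to -0.17 in ARG hearts and -0.22 to 0.49 in GLY hearts (-0.92 ± 0.20, adjusted p = 0.0787, or 0.0559 without GLY replicate 6). Of 4 measured sex-linked genes none was called, but Eif2s3y, a Y-linked gene, spanned -1.35 to 0.06 in ARG hearts and -2.40 to 0.03 in GLY hearts. The lowest values were those of GLY replicates 1 and 3, at -2.40 and -2.25, and ARG replicate 1, at -1.35. These hearts were also the lowest for the median of the sex-linked list, at -0.74, -0.74 and -0.71. Ribosomal protein (28), ubiquitin and proteasome (33), antioxidant (24), cell cycle (23), NAD (15) and interferon-induced (20) genes had none called in either fit, and their medians lay between -0.08 and 0.11. The per-heart medians of the NAD genes did not overlap, at -0.31 to -0.16 in ARG and -0.10 to 0.07 in GLY hearts. Of these lists, Uchl1, a deubiquitinase of neurons and stressed muscle, had 1.37 to 3.37 in ARG hearts and -0.04 to 1.99 in GLY hearts and was not called (1.23 ± 0.37, adjusted p = 0.266, or 0.103 without GLY replicate 6). Of 26 cytoskeleton and adhesion genes, Tubb6, a beta-tubulin, was called without GLY replicate 6 (0.65 ± 0.14, adjusted p = 0.0467).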

How the data were processed

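The submitters' processing notes name RMA for these Affymetrix arrays, without a version, and the sources used here name no build. Each deposited value is a ratio on a linear scale. The step that made them ratios is not stated, and their centring near the NTG level was read from the values. RMA without a stated ratio step leaves the signal level unknown, so no filter on dim probe sets was possible and changes of weakly expressed genes may be understated. Of 45101 probe sets 64 Affymetrix controls were left out. Of 45037 tested, 34945 had 1 gene symbol (18193 genes), 932 several and 9160 none. Symbols come from the platform annotation, updated through Entrez identifiers. Log2 of the ratio was taken, and limma 3.58.1 (R 4.3.3) fitted 1 mean per line to the 6 ARG and 6 GLY arrays, without a replicate block. Because the spread was wider in ARG and GLY than in NTG and AC5, a fit of all 24 arrays was kept as an alternative. Adjusted p is Benjamini-Hochberg over all 45037, the threshold is 0.05, and the words "rose" and "fell" are kept for what passed it. Errors are SE of the fitted difference. The number of arrays limits the precision. The fit was tested on simulated data.

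The members, the 45 gene lists (976 genes, 892 measured) and the tests were chosen with earlier results of these data known. For lists, 1 probe set per gene was taken by suffix (_at, _a_at, _s_at, _x_at) and then the lowest number. The rule for named genes took the 15 largest called rises and the 15 largest called falls without overlap. It further took up to 4 called members per list, or the member with the smallest p, the 6 largest calls made with or without GLY replicate 6 alone, and Myh6 and Adcy5. It named 83 genes, 43 of them called. Another 20 were added after their values were seen: Hspa5, Hsp90aa1, Postn, Col5a2, Thbs1, Asns, Ms4a7, Tmod4, Rcan1, Acaa2, Slc25a20, Dbp, Grk5, Adcy6, Col1a1, Col3a1, Cd68, C1qa, Lgals3 and Rad51b. Other called genes named were chosen from all calls after their values were seen. Of 37 called genes read by several probe sets, 7 had every one called in 1 direction, and none had opposite calls. Promoters and motifs come from RefSeq tables (GRCm38.p6). Alternatives changed the scaling, the arrays, the weights and the terms of the fit. The labels call the hearts biological replicates. Python 3.11.15 was used for tables (pandas 2.3.3 with numpy 2.4.6) and for figures (matplotlib 3.10.9).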

Additional observations from a re-analysis of the deposited data

Results flagged for a closer look

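Of 210 groups of 6 hearts examined among the named genes, 14 held a heart whose gap to its nearest neighbour exceeded Dixon's 95% limit. Chance alone gives about 1 such group in 20, so the number found is no pattern in itself. GLY replicate 4 was far below the other GLY hearts for the inducible Hsp70 genes, at -2.31 for Hspa1a (the others at -0.95 or above) and at -2.64 and -2.57 for both Hspa1b probe sets. These 3 probe sets may read the same transcripts. GLY replicate 6 exceeded the limit 3 times. It was highest of the GLY hearts for Ms4a7 at 1.33 and for Rcan1 at 0.22, on the ARG side, and lowest for a Tnnt2 probe set at -1.11, past the ARG range.

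Among ARG hearts, replicate 1 was lowest for Fign at -1.40 and highest for Ehhadh at -0.68. Replicate 2 was highest for Ccl2 at 1.37, and replicate 6 was highest for Cd14 at 1.80. Replicate 4 was highest for the interferon-induced gene Ifi27l2a at 1.87, and lowest for Acaa2 at -0.88 and for Rxrg at -0.89. Replicate 5 was lowest for Adra1b at -0.68. All values are log2 ratios.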

How the results depend on the processing

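Calls, rises and falls numbered 95, 58 and 37 and changed with the processing. All 95 kept their direction under each alternative tried, but they were chosen for their difference in these same arrays. A kept direction was therefore nearly fixed in advance and is no separate support. The counts were 678, 357 and 321 with all 24 arrays and a shared spread, 265, 171 and 94 with the set of replicates as a term, and 327, 203 and 124 with array weights. They were 62, 41 and 21 with median centring, 99, 54 and 45 with quantile normalization, 78, 44 and 34 with a robust spread, and 146, 105 and 41 without GLY replicates 1 and 3 and ARG replicate 1, the 3 arrays of lowest weight. With 1 probe set per gene and p adjusted over those 18193 alone they were 45, 27 and 18 (27 and 16 with p adjusted over all probe sets), and at 1.5-fold or more 76, 52 and 24. Replicates 4 to 6 alone gave 80, 57 and 23. Replicates 1 to 3 alone gave 0, 0 and 0 by limma, with 4556 probe sets at an unadjusted p under 0.05, and the cause was not tested. Leaving out 1 heart at a time gave 17 to 237, 9 to 147 and 7 to 90. Chosen after seeing the data, GLY replicate 6 was also left out together with the set term (350, 218 and 132), with replicates 4 to 6 only (181, 154 and 27) and with quantile normalization (367, 239 and 128). Of the 95, 62 stayed called with median centring, 78 with quantile normalization, 91 with all 24 arrays and 34 with replicates 4 to 6 alone.

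ARG and GLY share replicate numbers, and the labels do not say whether these pair hearts. Same-numbered deviations from the group means correlated at 0.492, 0.3, 0.11, 0.3, 0.0525 and 0.204, all above 0. Differently numbered ones correlated at -0.51 to 0.484, and not every heart correlated best with its own number. The replicate block gave 326, 215 and 111 calls, against 95, 58 and 37 in the main fit, which has no block. Among named genes, Myh6 changed sign to 0.20 in replicates 1 to 3 and ranged from -0.223 to 0.0794 with 1 heart left out. Rpl19 changed sign to 0.0626 in replicates 4 to 6 and to 0.0629 there without GLY replicate 6. Neither was called. The cause of these shifts was not tested. Signal over background is unknown, and the number of hearts limits the rest.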
